A study of Homo sapiens with 2 samples.

Results

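The 43 genes described here build actin filaments or join them to the cell membrane at focal adhesions. They were taken as a list of symbols that was drawn up with earlier results of these data known, so shares set against all genes below are descriptions. Every probe set annotated to one of these symbols was examined. RNA came from A549 cells, an established line of human lung carcinoma, which were exposed for 12 h to TGF-β at 1 ng/ml or left without it. Both cultures were grown in medium with fetal calf serum. Each condition was measured on 1 Affymetrix array, so every difference below sets a single array against another and has no replicate check. The effect of the cytokine and the difference between those arrays cannot be told apart, and no test or p-value is given. In RNA from a whole culture, a change in the number of cells that express a gene and a change of RNA per cell cannot be told apart either.

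Actin filaments in cultured epithelial cells are polymers of β- and γ-actin. Tropomyosins coat them, α-actinin and filamin cross-link them, and non-muscle myosin II pulls on them to form contractile stress fibres. At their ends, stress fibres are anchored in focal adhesions, where talin, vinculin, kindlin and tensin couple the filaments to integrins and where kinases and scaffolds such as FAK, paxillin and the CAS proteins signal. TGF-β is known to increase stress fibres and adhesions in many epithelial cells. Many genes of this machinery are known targets of serum response factor (SRF), which binds a short AT-rich element called the CArG box.

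Of the 43 genes, 38 had a probe set that passed a filter on dim signals, out of 12375 genes in all. The filter required a mean signal over both arrays of at least 48.7, the median of all probe sets, and each gene is represented by its brightest probe set past that filter. TLN2, the second talin, was represented only by probe sets under the filter. ACTG1, which encodes γ-actin, shared all 9 of its probe sets with ACTB in the annotation and was not assigned a value. TPM3, FLNA and FLNC were not analysed here. The signal is the MAS5 intensity on a linear scale, and a fold divides the TGF-β signal by the control signal. A background level was taken for each array as the highest of 27 control probe sets for bacterial RNA, which was 56.6 on the TGF-β array and 45.8 on the control array. For all 38 genes the representative probe set read above these levels on both arrays.

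Across the group, signals were higher on the TGF-β array for 33 of 38 genes, or 86.8%, while the same was true of 45.4% of all genes. Control probe sets for hybridization spikes, 18 in number, also leaned upward, with a median of 1.10-fold and a range from 0.951-fold to 1.19-fold. Several of the 33 higher genes lay inside that range, among them TPM2, VASP, PDLIM1, CNN3 and ACTB. The median log2 fold change of the group was 0.46, against -0.03 over all genes. By a rule of size, 4 genes were at least 2-fold higher, namely LMCD1, PDLIM7, NEDD9 and TNS1. This is 10.5% of the group, where 3.94% of all genes passed that line. No gene of the group was at least 2-fold lower, and 2.96% of all genes were. At a smaller threshold of 1.5-fold, 10 genes, or 26.3%, were higher, while the share over all genes was 9.16%. The added genes were FERMT2, MYH9, PXN, CALD1, ZYX and ACTN1. At 1.5-fold, 1 gene was lower, LIMA1, where 9.08% of all genes were. FERMT2 at 1.82-fold lay nearest below the 2-fold line. TPM1 and TLN1, both at 1.499-fold, lay just under the smaller threshold.

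Most of these genes gave strong signals, and strong signals varied less between the arrays: the spread of log2 fold changes was 0.10 among probe sets as bright as ACTB and 0.43 among those as dim as LIMA1. Of the 38 genes, 33 were also past a stricter filter at 349, and 29 of these 33 were higher, where 45.6% of 7815 genes at that brightness were. Among the 33, 3 genes were at least 2-fold higher, against 2.52% of genes at that brightness, and none was at least 2-fold lower, against 0.806%. In the same brighter set, 9 genes were at least 1.5-fold higher, against 6.18%, and none was at least 1.5-fold lower, against 3.90%. A further rule, chosen after the data had been seen, set each gene against the 500 probe sets nearest to it in brightness. By this rule 17 genes of the group stood more than 2 spreads above the centre of their neighbours, or 44.7%, where 7.41% of all genes did. None stood as far below, where 4.53% of all genes did. The spread is over probe sets and is no replicate error.

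**Figure D1:**
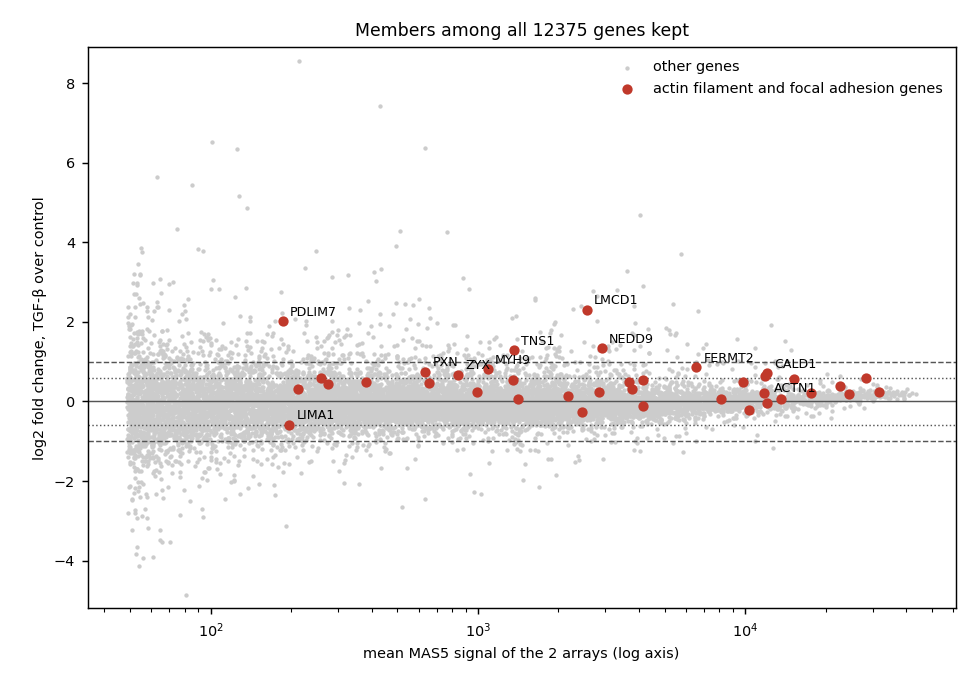
Log2 fold change (y axis) against the mean signal of both arrays (x axis, log scale) for 12375 genes, with the 38 actin filament and focal adhesion genes in red and names for those past 1.5-fold. Dashed lines mark 2-fold and dotted lines 1.5-fold; 33 red points lie above 0, and the grey cloud narrows with brightness.

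The β-actin gene ACTB read 34183 with TGF-β and 29062 without it, which is 1.18-fold. Its other probe sets gave 1.19-fold and 1.17-fold. The array also carries control probe sets along the ACTB transcript, which gave 1.15-fold at the 3′ end, 1.22-fold in the middle and 1.25-fold at the 5′ end. The 9 probe sets annotated to both cytoplasmic actins together lay between 1.09-fold and 1.19-fold. Signals as bright as these were shifted upward as a whole on the TGF-β array. The 500 probe sets nearest to ACTB in brightness had a centre of 0.15 on the log2 scale, ACTB itself had 0.23, and GAPDH, a glycolytic enzyme used as a control, gave between 1.11-fold and 1.16-fold on its 3 control probe sets. ACTB was 0.879 spreads above the centre of its neighbours. When the arrays were normalized by quantiles its log2 fold change was 0.04.

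Among the proteins that lie along the filament, the signals of all 7 measured genes were higher with TGF-β, and 1 passed 1.5-fold. Of all genes, 45.4% were higher and 9.16% were at least 1.5-fold higher. CALD1 encodes caldesmon, which binds actin and tropomyosin and restrains myosin. It read 14930 on the TGF-β array and 9121 on the control array, 1.64-fold higher. Of its 7 probe sets with both signals above background, all were higher with TGF-β, between 1.01-fold and 2.34-fold. The 3 next brightest of CALD1, at 1.94-fold, 1.97-fold and 2.34-fold, lay above the brightest, and dimmer ones at 1.01-fold and 1.59-fold lay below it. In TPM1, a tropomyosin, the brightest probe set had the smallest fold. It read 33970 with TGF-β and 22661 without it, 1.499-fold, while the dimmer probe sets gave 1.999-fold, 2.21-fold, 2.15-fold and 3.90-fold. The last of these read 1033 with TGF-β and 265 in the control. By the median over its probe sets, TPM1 had a log2 fold change of 1.10, past 2-fold, so its place against the threshold depended on which probe set stood for it.

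The other tropomyosins differed less between the arrays. TPM4 read 4198 with TGF-β and 3369 without it, 1.25-fold, and its other probe sets gave 1.40-fold and 1.20-fold. TPM2 read 13914 and 13318 on the TGF-β and control arrays, 1.04-fold. The log2 fold change of TPM1 exceeded that of TPM2 by 0.52 and that of TPM4 by 0.27. TAGLN2, a transgelin that bundles filaments, read 25746 with TGF-β and 19651 without it, 1.31-fold, and a second probe set gave 1.30-fold. The calponins CNN2 and CNN3, which stabilise filaments, were at 1.39-fold and 1.10-fold. CNN2 read 761 and 547 on the TGF-β and control arrays, and CNN3 read 2284 and 2074.

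**Figure D2:**
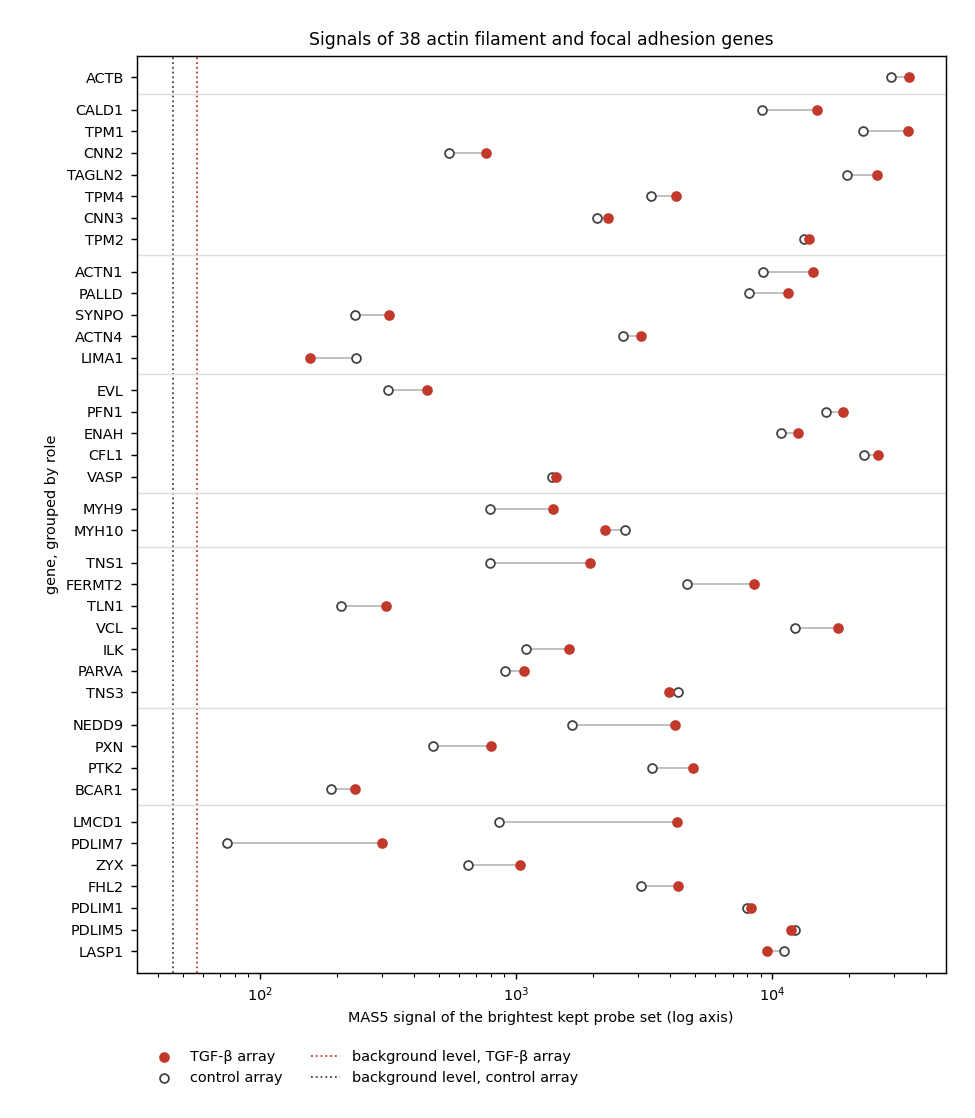
MAS5 signals (x axis, log scale) of 38 genes on the TGF-β array (red) and the control array (open), grouped by role and ordered by fold within each group; dotted lines mark the background levels of 56.6 (TGF-β) and 45.8 (control). LMCD1 and PDLIM7 have the widest gaps, and the red point lies left of the open one only for LIMA1, MYH10, TNS3, PDLIM5 and LASP1.

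Sequence near the transcription start is shown for the members that hold a CArG box there, because SRF binding to this element is the best known control of actin genes. RefSeq windows of the build GRCh38.p14, from 250 bases before to 50 bases after each start, were found for 40 of the 43 genes, as 75 windows. ACTB, PTK2 and PARVA had no window and were not searched. The CArG box was searched on both strands. It was found in 8 of the 75 windows, 10.7%, while it occurs in 1.29% of all 35116 windows. Counted by gene, 6 of the 40 genes, or 15%, hold it, where 1.6% of all genes do. FHL2 holds it in windows of different starts. Of those 6 genes, ACTN1 was 1.57-fold higher with TGF-β, FHL2 1.39-fold, CNN2 1.39-fold and TPM4 1.25-fold, and ACTG1 and FLNA had no value. None of the genes past 2-fold (LMCD1, PDLIM7, NEDD9 and TNS1) holds the box in these windows. Of the genes past 1.5-fold, only ACTN1 does. Each stretch below is written 5′ to 3′ on the strand of the gene, with the CArG box in capitals. A match is a description of the letters and not evidence of binding.
ACTN1, chr14:68977703-68977762, minus strand: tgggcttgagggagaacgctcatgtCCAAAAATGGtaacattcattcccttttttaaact
FHL2, upstream start, chr2:105438580-105438639, minus strand: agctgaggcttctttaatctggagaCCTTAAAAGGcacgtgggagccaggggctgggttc
FHL2, downstream start, chr2:105399076-105399135, minus strand: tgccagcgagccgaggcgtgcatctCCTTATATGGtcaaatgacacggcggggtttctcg
CNN2, chr19:1026494-1026553, plus strand: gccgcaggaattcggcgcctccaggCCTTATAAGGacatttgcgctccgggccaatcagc
TPM4, chr19:16067340-16067399, plus strand: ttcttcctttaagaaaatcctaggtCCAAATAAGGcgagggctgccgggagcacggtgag
ACTG1, chr17:81512859-81512918, minus strand: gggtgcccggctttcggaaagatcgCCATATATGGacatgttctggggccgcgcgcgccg
FLNA, chrX:154374694-154374753, minus strand: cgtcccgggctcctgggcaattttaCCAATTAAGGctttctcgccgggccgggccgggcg

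The cross-linkers and bundlers differed in direction. ACTN1, the α-actinin of stress fibres, read 14467 on the TGF-β array and 9238 on the control array, 1.57-fold higher. Its dimmer probe sets gave 1.98-fold and 2.74-fold. The second of these read 4285 with TGF-β and 1563 without it, so the brightest probe set had the smallest fold, as in TPM1. ACTN4, the other non-muscle α-actinin, read 3071 and 2624 on the TGF-β and control arrays, 1.17-fold, and its log2 fold change was 0.42 below that of ACTN1. PALLD encodes palladin, a scaffold of actin bundles, and read 11470 with TGF-β and 8108 without it, 1.41-fold. Its other 2 probe sets above background gave 1.49-fold and 1.59-fold. SYNPO, which encodes synaptopodin, an α-actinin partner, read 317 and 235 on the TGF-β and control arrays, 1.35-fold, and a second probe set gave 1.75-fold. Its dimmest probe set had its TGF-β signal at background and its control signal at 82.7, a fall of at least 1.46-fold.

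LIMA1 was the only gene of the group past 1.5-fold in the other direction. It encodes EPLIN, a protein of epithelial junctions that bundles filaments and slows their branching. Its signal was 157 with TGF-β and 236 without it, 1.504-fold lower, and its second probe set read 119 with TGF-β and 191 in the control, 1.60-fold lower. At this brightness the spread of log2 fold changes was 0.43, and LIMA1 lay at -1.35 spreads from the centre of its neighbours. Its fall was smaller than 1.5-fold when 50 was added to each signal, and when medians were equalised, quantiles matched or a loess curve removed.

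Proteins that set the growth and turnover of filament ends differed little. Of the 5 genes none passed 1.5-fold, where 9.16% of all genes did. All 5 were higher with TGF-β, where 45.4% of all genes were. EVL, an Ena/VASP protein that promotes elongation, read 447 and 317 on the TGF-β and control arrays, 1.41-fold. Its relatives ENAH and VASP were at 1.16-fold and 1.04-fold. ENAH had probe sets in both directions, 4 higher and 1 lower, between 0.846-fold and 1.38-fold. PFN1 (profilin, which feeds monomers to growing ends) read 18954 with TGF-β and 16230 without it, 1.17-fold. CFL1 (cofilin, which severs filaments) read 25925 with TGF-β and 22761 without it, 1.14-fold. PFN1 lay 1.09 spreads and CFL1 0.437 spreads above genes of like brightness. EVL lay 1.49, ENAH 0.985 and VASP 0.428 spreads above theirs, so none of the 5 passed 2 spreads.

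The heavy chains of non-muscle myosin II went in different directions. MYH9 (myosin IIA) read 1389 on the TGF-β array and 789 on the control array, 1.76-fold higher, from its only probe set. MYH10 (myosin IIB) read 2216 and 2664 on the TGF-β and control arrays, 1.20-fold lower, and a dimmer probe set read 414 and 416. The log2 fold changes of MYH9 and MYH10 differed by 1.08, while the spread at either brightness was at most 0.27.

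**Figure D3:**
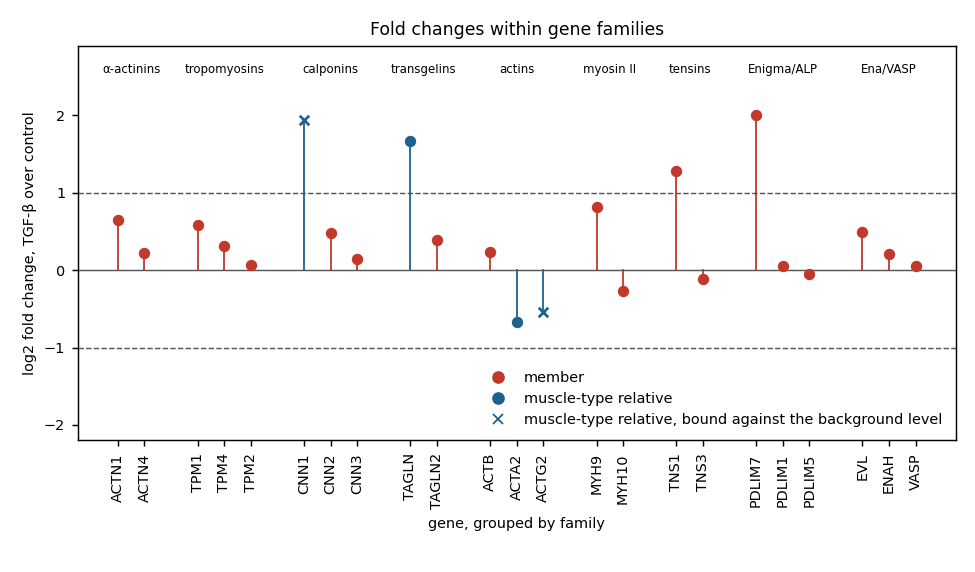
Log2 fold change (y axis) of related genes, with members in red and muscle-type relatives in blue; crosses are bounds computed against the background level. MYH9 and TNS1 lie above 0 while MYH10 and TNS3 lie below it, and PDLIM7 is at 2.01 while PDLIM1 and PDLIM5 are near 0.

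Among the 8 listed genes that link integrins to actin, 7 were measured. Of these, 6 were higher with TGF-β, where 45.4% of all genes were. TNS1 (tensin 1), which binds integrin tails and caps filaments, had the widest difference. It read 1934 with TGF-β and 793 without it, a rise of 2.44-fold. Its dimmer probe sets gave 1.61-fold, 2.16-fold and 2.52-fold, and TNS1 stayed past 2-fold in all 11 settings of processing. TNS3, another tensin, read 3965 with TGF-β and 4295 in the control, 1.08-fold lower, and the log2 fold changes of the tensins differed by 1.40. FERMT2 (kindlin-2), which activates integrins with talin, read 8449 with TGF-β and 4652 without it, 1.82-fold higher. Its 3 probe sets lay between 1.82-fold and 1.93-fold. FERMT2 stood 4.65 spreads above genes of its brightness.

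The remaining linkers lay under 1.5-fold. VCL, which encodes vinculin and reinforces adhesions under tension, read 18122 on the TGF-β array and 12243 on the control array, a log2 fold change of 0.57. That is 3.54 spreads above genes of like brightness. TLN1, the main talin, read 310 and 207 on the TGF-β and control arrays, and a dimmer probe set gave 1.15-fold. ILK (integrin-linked kinase, a scaffold of adhesions) read 1604 with TGF-β and 1096 in the control, 1.46-fold. Its partner PARVA (α-parvin) was at 1.18-fold, with 3 probe sets higher and 2 lower, all between 0.918-fold and 1.23-fold.

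All 4 adhesion scaffolds and kinases were higher, where 45.4% of all genes were, and 2 of them passed 1.5-fold, where 9.16% did. NEDD9 (HEF1, a CAS-family docking protein) read 4166 with TGF-β and 1655 without it, a rise of 2.52-fold. Its next probe set gave 1.78-fold and its dimmest 1.45-fold, so by the median over probe sets its log2 fold change was 0.83, under 2-fold. PXN encodes paxillin, an adaptor that recruits kinases to adhesions. It read 798 on the TGF-β array and 474 on the control array, 1.68-fold higher. PTK2, which encodes focal adhesion kinase, read 4892 and 3392 on the TGF-β and control arrays, 1.44-fold, and its other probe sets above background gave 1.61-fold and 1.39-fold. BCAR1 (p130CAS), a relative of NEDD9, read 235 and 189 on the TGF-β and control arrays, 1.24-fold.

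**Figure D4:**
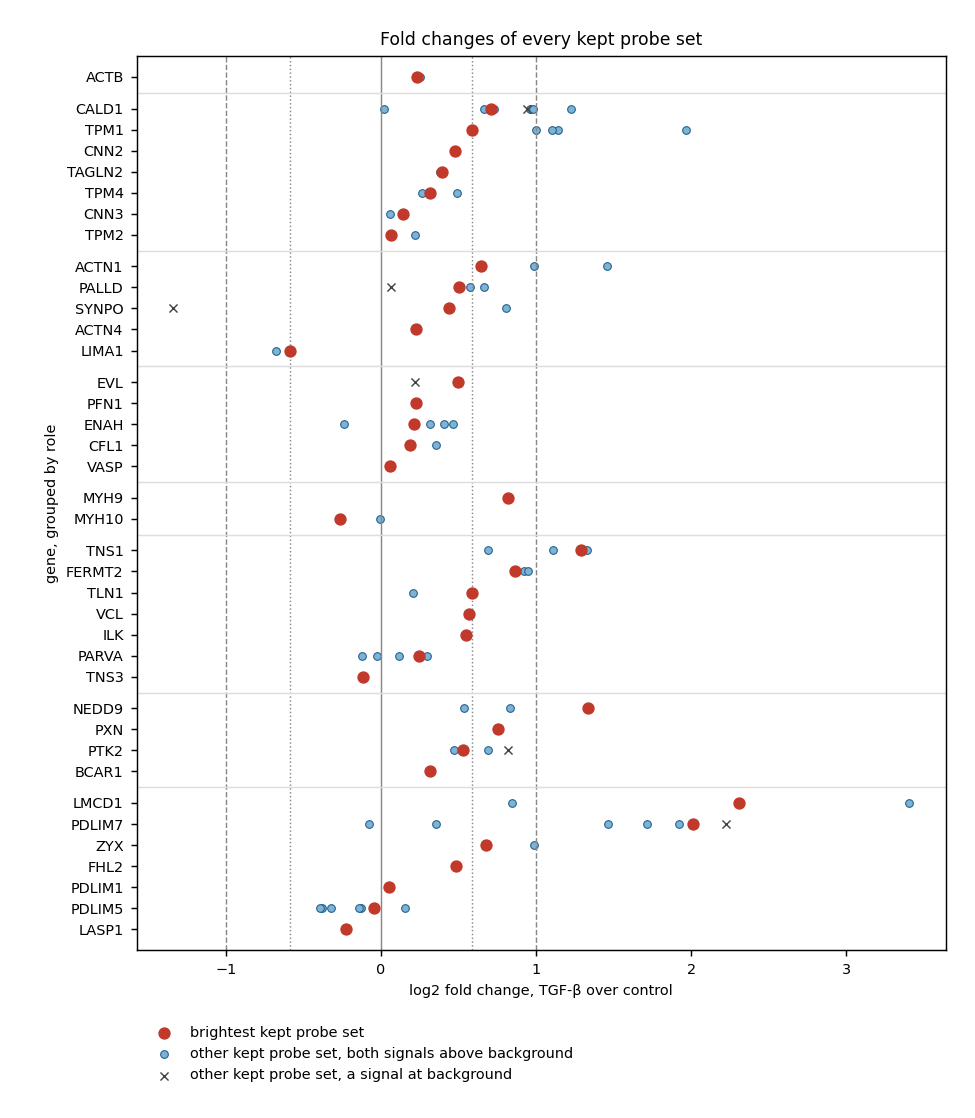
Log2 fold change (x axis) of every probe set past the filter for each gene, with the brightest probe set in red, the others in blue, and crosses where a signal was at background and the ratio is shown as deposited. Dashed lines mark 2-fold and dotted lines 1.5-fold; TPM1 and ACTN1 have blue points to the right of the red one, and LMCD1 and PDLIM7 spread the widest.

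Of 7 LIM-domain adaptors, 5 were higher with TGF-β, where 45.4% of all genes were. The widest differences of the group, LMCD1 and PDLIM7, were among these adaptors. LMCD1 encodes dyxin, a LIM and cysteine-rich protein that restrains GATA factors. It read 4253 on the TGF-β array and 860 on the control array, a rise of 4.95-fold. Another probe set of LMCD1 read 1327 with TGF-β and 125 without it, 10.6-fold, and its dimmest read 166 with TGF-β and 92.4 in the control, 1.80-fold. All 3 of its probe sets were higher, but they differed widely in the size of the rise. LMCD1 is on the list of strongly regulated genes that the study drew from these same arrays, so its place here is no independent evidence. That list had a stricter threshold than those used here, and its fold for LMCD1 is somewhat larger than that of the brightest probe set.

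PDLIM7 (Enigma), which recruits kinases to actin bundles, had 7 probe sets past the filter. The brightest read 298 with TGF-β and 74.1 without it, a rise of 4.03-fold. Probe sets at 244 and 88.6, 228 and 60.2, and 166 and 50.6 on the TGF-β and control arrays gave 2.75-fold, 3.78-fold and 3.29-fold. A further one, whose control signal was at background, was at least 2.62-fold higher. The last 2 read 75.7 with TGF-β and 59.3 in the control, 1.28-fold, and 79.7 with TGF-β and 84.1 in the control, 0.948-fold. These signals were dim, and with 50 added to each signal the log2 fold change of PDLIM7 was 1.49, against 2.01 as deposited. The relatives PDLIM1 and PDLIM5 were close to no difference: PDLIM1 read 8236 with TGF-β and 7943 without it, and PDLIM5 read 11859 with TGF-β and 12231 in the control. Of 7 probe sets of PDLIM5, 6 were lower, none by more than 1.31-fold.

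ZYX encodes zyxin, which repairs strained stress fibres. It read 1035 on the TGF-β array and 649 on the control array, 1.60-fold higher, and its second probe set gave 1.98-fold. FHL2, a co-regulator that shuttles between adhesions and the nucleus, read 4289 with TGF-β and 3075 without it, 1.39-fold. LASP1, a LIM and SH3 protein of membrane ruffles, read 9497 with TGF-β and 11105 in the control, 1.17-fold lower. Its distance from the centre of genes of like brightness was -1.56 spreads.

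Promoter windows are also shown for LMCD1 and TNS1, both past 2-fold. They were picked because LMCD1 holds a match to a CREB-family motif and TNS1 matches to a Smad motif. Here too a match is a description of the letters and not evidence of binding. The study addressed the CREB-like factor CREB3L1 and Smad proteins, and it did not examine these matches. CREB-family factors bind TGACGTCA, which was found in the window of LMCD1 alone among the 40 genes, 1.33% of their windows, and occurs in 1.85% of all windows. Smad proteins bind GTCT-type repeats, and CAGACA, searched on both strands, was found in 9 of the 75 windows, 12.0%, while it occurs in 16.9% of all windows. Counted by gene, 20% of the 40 genes and 19.9% of all genes hold it. It was present in TNS1, TPM1, ACTN1, BCAR1, PFN1 and SYNPO, which read higher with TGF-β, and in LIMA1 and PDLIM5, which read lower. In the TNS1 stretch printed here, copies on opposite strands lie side by side. TNS1 also holds the motif in the window of another start, which is not printed. Further motifs searched were TGACTCA of AP-1, found in 6.67% of the windows of the group and 4.95% of all, and CATTCC of TEAD factors, found in 20% and 14%. In the ACTN1 stretch printed above, CATTCC lies on the 3′ side of the CArG box. Capitals mark the motif.
LMCD1, chr3:8501573-8501872, plus strand: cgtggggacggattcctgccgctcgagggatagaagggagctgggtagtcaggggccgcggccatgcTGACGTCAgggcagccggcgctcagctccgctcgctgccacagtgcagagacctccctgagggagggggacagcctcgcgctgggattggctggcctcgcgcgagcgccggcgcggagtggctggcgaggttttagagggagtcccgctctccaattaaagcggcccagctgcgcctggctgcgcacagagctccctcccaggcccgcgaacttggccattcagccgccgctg
TNS1, chr2:217850382-217850438, minus strand: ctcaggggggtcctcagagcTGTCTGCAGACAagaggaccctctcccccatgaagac

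Over all probe sets, the group had 130, of which 101 passed the filter and 95 read above background on both arrays. Of these 95, 79 were higher with TGF-β and 16 were lower, where 46.8% of 21195 such probe sets of all genes were higher. At least 2-fold higher were 15, where 2.73% of all such probe sets were, and none was 2-fold lower, where 1.24% were. Probe sets of 1 gene share their transcripts and are not replicates. In 24 genes several probe sets could be compared: all were higher in 18 genes, all were lower in LIMA1 and MYH10, and the 4 others, ENAH, PARVA, PDLIM5 and PDLIM7, had probe sets in both directions. The same count was not made over all genes, so these numbers have no share to stand beside.

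Other genes of the actin and adhesion machinery were examined as 4 lists with 104 measured genes of 125. Of these, 8 were at least 2-fold higher and 5 at least 2-fold lower by signals as deposited. The shares of all genes by that rule were 3.94% higher and 2.96% lower, and they also stand beside the counts of each list below. With both signals above background, 6 were higher and 4 lower. The median log2 fold change of the 104 genes was 0.18, against -0.03 over all genes. Adhesion adaptors outside the group had 3 rises and 2 falls of 2-fold among 25 genes. The rises were TGFB1I1 (Hic-5, a paxillin relative) at 3.05-fold, the tensin TNS4 at 2.24-fold and FBLIM1 (migfilin) at 2.04-fold. Those that fell were SORBS3 (vinexin), at 86.7 with TGF-β and 201 without it, and LIMD1, at 1176 with TGF-β and 2438 without it.

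Of 31 genes for proteins of branched and capped filaments, 29 were higher, where 45.4% of all genes were. None passed 2-fold in either direction, and their median was 0.19. Some of them, such as TMSB10 at 44567 with TGF-β and 35948 without it, were as bright as ACTB. The centre of probe sets as bright as ACTB was itself 0.15. Among 17 myosins and light chains, 1 rose and 1 fell 2-fold. MYO10, which carries cargo along filopodia, read 5426 with TGF-β and 2221 without it, a rise of 2.44-fold. MYLK, the kinase of the myosin light chain, read 2079 on the TGF-β array and 4214 on the control array, a fall of 2.03-fold. The list of other cross-linkers and membrane links included muscle-type relatives of the group and had 4 rises and 2 falls of 2-fold among 31 genes by signals as deposited, and 2 rises and 1 fall with both signals above background. TAGLN (SM22) read 3121 with TGF-β and 979 without it, a rise of 3.19-fold, against 1.31-fold for TAGLN2, and CNN1 was at least 3.84-fold higher because its control signal was at background. The muscle protein XIRP1 was at least 2.11-fold higher, and ABLIM3, a LIM protein that binds actin, read 141 with TGF-β and 67.5 without it. The muscle actins differed in direction. ACTA2 read 112 with TGF-β and 178 without it, ACTC1 read 135 with TGF-β and 93.7 without it, and ACTG2 had its TGF-β signal at background and 82.3 in the control, a fall of at least 1.45-fold. PLS1, a fimbrin of microvilli, fell 2.04-fold.

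**Figure D5:**
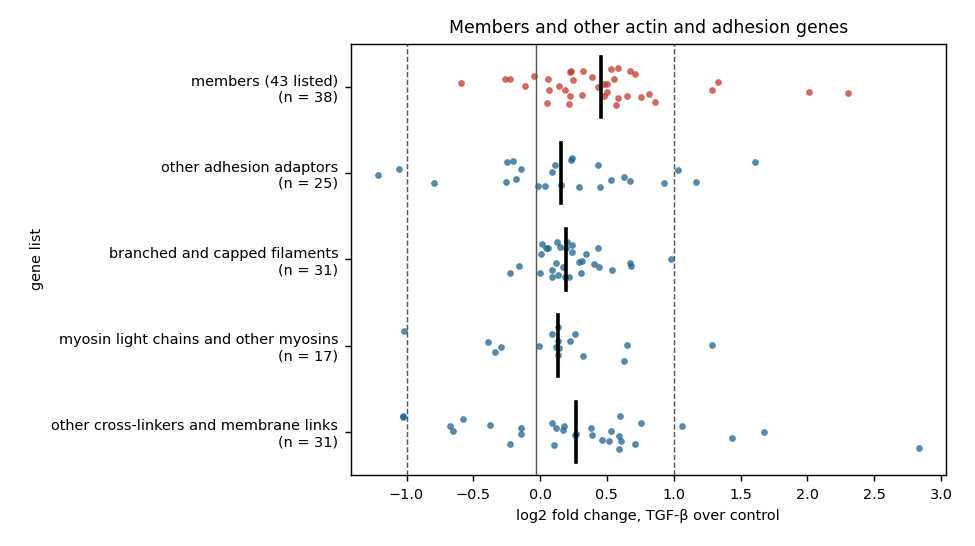
Log2 fold change (x axis) of the 38 measured genes of the group (red) and of 4 lists of other actin and adhesion genes (blue), with ratios as deposited; black bars are medians, the solid line is the median of all genes and dashed lines mark 2-fold. The group's median is 0.46, and the medians of the lists lie between 0.14 and 0.27.

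The cells were checked against marker genes of several cell types. All 6 epithelial markers were above background on both arrays, and they differed in direction. The keratins KRT7, KRT8 and KRT18 read 1.55-fold, 1.17-fold and 1.13-fold higher with TGF-β. KRT19 read 991 with TGF-β and 1492 in the control, EPCAM read 1616 with TGF-β and 2176 in the control, and CDH1, which encodes E-cadherin, read 846 with TGF-β and 1952 in the control. The summed signal of the list, most of it from the bright keratins, was 88879 with TGF-β and 73975 without it. Of 6 fibroblast markers 2 were above background on an array, and their sum was 157 with TGF-β and 212 without it. Of 4 measured immune markers 2 were above background, with a sum of 186 with TGF-β and 299 without it, and PTPRC, which defines leukocytes, was at background on both arrays. Of 6 endothelial markers 2 were above background, with a sum of 127 with TGF-β and 140 without it. All 6 smooth muscle markers were above background on an array, and their sum was 3923 with TGF-β and 1430 without it. TAGLN was the main part, and SMTN, which encodes smoothelin, read 423 with TGF-β and 133 without it. CNN1 was also higher, MYH11 read 64.6 with TGF-β and 63.5 without it, and ACTA2 and DES were lower. DES was at background with TGF-β. The part of these marker genes in the differences of the group was not tested. The ratio of 3′ to 5′ signal of ACTB, a measure of RNA integrity, was 1.83 with TGF-β and 1.98 without it.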

How the data were processed

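RNA from A549 cells with and without TGF-β was hybridized to 1 array each. The authors deposited MAS5 intensities on a linear scale (named in the submitters' processing notes, version not given in the sources used here), with a trimmed mean of 500 on each of the arrays. Probe sets with 1 gene symbol in the platform annotation (41091) were named, and those with several (1801) or none (11721) were not. Symbols were updated by Entrez gene identifier from the RefSeq genes of GRCh38.p14. Folds were computed in pandas 2.3.3 and numpy 2.4.6 under Python 3.11.15. Loess came from statsmodels 0.14.6. Figures were drawn by matplotlib 3.10.9. A probe set was kept when its mean signal reached 48.7. Where the dimmer signal was at or under the background level, the fold was computed against that level and is given as "at least". The spread is 1.4826 times the median absolute deviation over the 500 nearest probe sets in brightness. The summary per gene was tested on simulated data in which all probe sets of a gene had the same change, apart from small noise. Wider disagreement between probe sets was not simulated. The number of arrays limits the precision.

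Genes named were all members, and in each list of other genes up to 3 rises and 3 falls of 2-fold with both signals above background. ACTA2, ACTC1, ACTG2, CNN1 and XIRP1 were named after their values were seen. The members and lists were chosen with earlier results of these data known. Alternatives were other filters (none, or 349), a floor at background, an offset of 50, scaling by medians, quantiles or loess (span 0.3), and other choices of probe set. A call at 2 spreads was added later. A further list of other genes is not reported here. Promoter windows came from RefSeq, GRCh38.p14.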

Additional observations from a re-analysis of the deposited data

How the results depend on the processing

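Because each condition had 1 array, the settings below give no measure of variation between cultures. The 4 genes at least 2-fold higher became 3 of 33 with the stricter filter, under which PDLIM7 had no value. They became 5 of 29 without probe sets marked as sharing targets. When the most changed probe set stood for each gene they were 7 (LMCD1, PDLIM7, NEDD9, TNS1, TPM1, ACTN1 and CALD1). The shares of all genes in these settings were 2.52%, 4.30% and 5.45%. With the most changed probe set 1 gene, SYNPO, was at least 2-fold lower by signals as deposited, its TGF-β signal being at background, where 4.82% of all genes were, and none was in the other settings. The 10 genes at least 1.5-fold higher ranged from 8 to 14 in the planned settings and were 17 by the rule of 2 spreads. They were 8 of 29 without shared-target probe sets, where 9.64% of all genes passed, and 14 with equal medians, where 10.2% did. The single gene at least 1.5-fold lower, LIMA1, had no value with the stricter filter or without shared-target probe sets. The count there was 0, where 3.90% and 9.84% of all genes passed. It was also 0 with the offset, equal medians, quantiles and loess, where 5.31%, 7.93%, 8.62% and 8.18% passed. By the rule of 2 spreads it was 0, where 4.53% passed. The count was 2 when the most changed probe set was used, where 14.9% of all genes passed. The median log2 fold change of the group lay between 0.31 and 0.50. Of 104 values of the 11 genes past 1.5-fold, 96 moved by less than the spread at their brightness, 8 moved by more and none changed sign. Many of the 96 could not move, because the filters and the floor leave these brightest probe sets as they were. The count is therefore no measure of stability. Choices of probe set moved ACTN1 to 1.46 or 0.99, CALD1 to 1.23, LMCD1 to 3.40, ZYX to 0.99 and NEDD9 to 0.83 on the log2 scale, and the offset moved PDLIM7 to 1.49. Apart from the filters and the offset, which by construction bear on dim signals, no cause of these shifts was tested.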
